A study of Mus musculus with 48 samples.

Results

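Protein phosphatase subunit genes were described across 4 brain tissues of male C57BL/6 mice under a cycle of 12 h light and 12 h dark. SN/VTA stands for substantia nigra and ventral tegmental area, PFC for prefrontal cortex, STR for striatum and HAB for habenula, all cut from coronal slices. Mice were killed every 4 h over 2 days in a row. Zeitgeber time (ZT) counts hours from lights on, so that ZT3, ZT7 and ZT11 fall in the light and ZT15, ZT19 and ZT23 in the dark, and no group carried an allele or received an agent. Each of the 48 arrays held RNA pooled from 3 mice, so each tissue had 12 arrays, 1 per time and 24-h cycle, and p-values measure the spread between pools. P-values over several tissues treat their pools as independent, though the labels do not say whether those of 1 time came from the same mice. The members were the genes whose only symbol on an array row begins with Ppp, a number from 1 to 6, and c for a catalytic or r for a regulatory subunit. Of 78 such genes, 70 had a mean log2 level of at least 5.05, which is the 30th percentile over rows, and entered the tests among 17274 genes. The rule used no difference between tissues or times.

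A protein phosphatase removes phosphate from serine and threonine residues. A few catalytic subunits do this work, and each joins one of many regulatory subunits that place it at glycogen, actin, myosin, the nucleus or the synapse, or that block it. Protein phosphatase 1 (PP1) and 2A (PP2A) do most of it in cells. Calcineurin, whose genes begin with Ppp3, is switched on by calcium and is abundant in neurons. In striatal neurons dopamine signalling acts in part through phosphoproteins that inhibit PP1. PP1 and casein kinases also act on clock proteins, so the family is known from circadian work as well.

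Most members differed by less than 0.5 on the log2 scale between any tissue and the mean of the others, and a few stood far apart. The PP1 inhibitor Ppp1r14a was 2.78-fold higher in SN/VTA than the mean of the other tissues, while the inhibitor Ppp1r1a and the calcineurin subunit Ppp3ca were 2.06-fold and 2.07-fold lower there. The PP2A subunit Ppp2r5a was 2.96-fold higher in PFC. Over the day, 9 members were called for a rhythm shared by the tissues, led by Ppp1r14a, which peaked at ZT6.3 with a trough-to-peak fold of 1.37. Only Ppp1r14a was called with the tissues averaged at each collection time. No member was called without replicate 1 or within a single tissue.

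The labels were checked first. All 6 measured markers of medium spiny neurons had their highest mean in STR, all 6 of midbrain dopamine neurons in SN/VTA, all 5 of cortical glutamatergic neurons in PFC and all 5 of habenula neurons in HAB. Markers listed for other regions were high too, and whether these genes are particular to those regions was not tested. In HAB 4 of 5 hippocampus, 4 of 5 thalamus and 2 of 5 cortical markers were higher by at least 1 on the log2 scale. There 1 cortical marker was lower by at least 1, and the hippocampus marker Calb1 by -0.36. In SN/VTA 3 of 5 thalamus markers were higher by at least 1. The part of other regions in the differences of the members was not tested. Array medians lay between 5.84 and 6.07 on the log2 scale, and the r between both arrays of a tissue and time ran from 0.982 to 0.995. The clock gene Dbp, which is driven directly by the core clock, had a shared amplitude of 0.50 ± 0.03 (SE) with a peak at ZT11.6, Nr1d1 one of 0.45 ± 0.03 and Per1 one of 0.29 ± 0.03, which set a scale for the amplitudes of the members. In these bulk samples fewer cells of a type and less RNA per cell cannot be told apart. Signals of different genes come from different probes, so levels are compared only between tissues or times of 1 gene.

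With limma the level in a tissue was compared with the mean over the remaining 3, and a gene was called at a Benjamini-Hochberg adjusted p under 0.05 and a log2 difference of at least 1. In SN/VTA 3 members were called, where 3.55% of all genes tested were; 1 was higher (2.25% of all genes) and 2 were lower (1.3%). In PFC 1 member was called (5.27% of all genes), in STR none (2.18%) and in HAB none (2.08%). With 1 call in any tissue enough, 4 of 70 members (5.71%) passed against 9.17% of all genes, so the family held no more such genes than the array as a whole. At a size of 0.5, 29 members (41.4%) passed in any tissue against 37.2% of all genes. By tissue these were 12 in SN/VTA (18.3% of all genes), 17 in PFC (23%), 10 in STR (13.7%) and 7 in HAB (9.38%). In SN/VTA 6 were higher (12.5% of all genes) and 6 lower (5.82%), in PFC 7 higher (9.95%) and 10 lower (13%), in STR 4 higher (4.93%) and 6 lower (8.81%), and in HAB 3 higher (5.52%) and 4 lower (3.86%). For 26 members (37.1%, against 29.1% of all genes) all 12 arrays of a tissue lay above or below all 36 others. The SN/VTA arrays lay above all others for 5 members (8.9% of all genes) and below for 4 (2.25%), and those of PFC above for 4 (7.49%) and below for 6 (6.77%). Those of STR lay above for 3 (2.04%) and below for 4 (3.2%), and those of HAB above for 2 (1.85%) and below for 2 (0.863%). The median spread between the highest and lowest tissue mean was 0.56 for the members and 0.52 for all genes tested. SN/VTA had the highest mean for 29 members (41.4%, against 32.9% of all genes) and PFC the lowest for 27 (38.6%, against 33.9%).

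The split in SN/VTA depended on the scaling between arrays. With each array centred on its median, the median difference of all genes tested moved from 0.05 to 0.20 in SN/VTA and from -0.02 to -0.12 in STR. The members past 0.5 then became 16 higher and 4 lower in SN/VTA, and 3 higher and 9 lower in STR. After quantile normalization the splits were 7 higher and 6 lower in SN/VTA and 4 higher and 3 lower in STR.

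**Figure D1:**
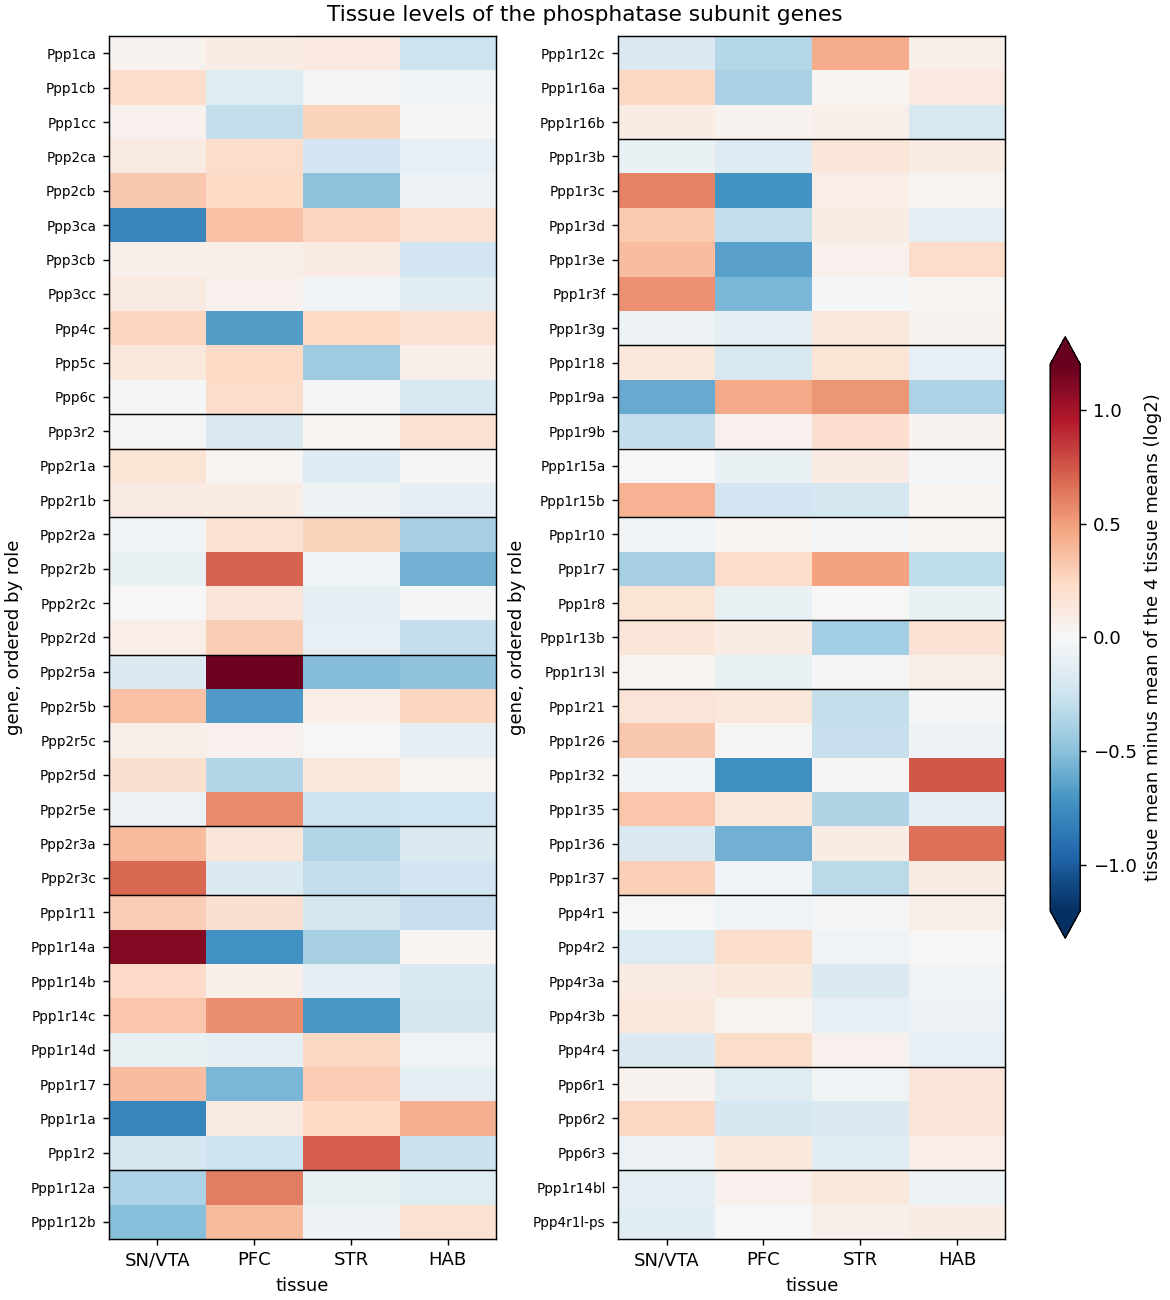
Mean level of each of the 70 members in each tissue minus the mean of its 4 tissue means (colour, log2; genes in rows ordered by role, black lines between roles; tissues in columns, 12 arrays each). The deepest colours belong to Ppp2r5a in PFC and Ppp1r14a in SN/VTA, and most other cells are pale.

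Of the 11 catalytic subunit genes, 1 was called, the calcineurin A subunit Ppp3ca. Its level in SN/VTA ran from 10.59 over a median of 10.72 to 10.86, against 11.74, 11.87 and 11.99 in PFC, 11.71, 11.78 and 11.84 in STR and 11.30, 11.73 and 11.89 in HAB. All SN/VTA arrays lay below all others, and the other 3 tissues overlapped. The difference was -1.05 ± 0.04 (SE, limma adjusted p = 3.0e-20), and it shrank to -0.90, under the size required, with medians centred. The other calcineurin A genes did not follow it. Ppp3cb ran from 10.98 to 11.20 in SN/VTA, 11.01 to 11.13 in PFC and 10.92 to 11.19 in STR, ranges that overlap, and was lower in HAB, at 10.63 to 10.96, with a difference of -0.31 there. Ppp3cc, the third calcineurin A gene, differed by 0.14 in SN/VTA. Thus within one enzyme's catalytic genes the midbrain tissue was low for 1 of 3.

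The PP1 catalytic genes differed little. Ppp1ca was lower in HAB by -0.34, with all 12 HAB arrays below all others. Ppp1cb was higher in SN/VTA by 0.28, with all 12 of its arrays above all others, and Ppp1cc was lower in PFC by -0.39 and higher in STR by 0.35. A dimmer row of Ppp1cb, with a mean of 4.89 and so below the filter, gave 1.49 in PFC where the row used gave -0.19, so the rows of this gene disagree there. Of the PP2A catalytic genes, Ppp2cb was lower in STR, at 9.26 ± 0.12 (SD, n = 12) against 9.68 ± 0.09 in HAB and 10.08 ± 0.07 in SN/VTA, a difference of -0.65, and its 12 STR arrays lay below all others. For its close relative Ppp2ca the 3 rows disagreed: the difference in PFC was 0.29 on the row used, -1.18 on the second and -0.22 on the dimmest, so no direction is given. The other catalytic genes were Ppp4c, Ppp5c and Ppp6c. Ppp4c was lower in PFC, where it ran from 7.23 over 7.44 to 7.73, against 8.08 to 8.67 over the other tissues, a difference of -0.90 with no overlap. Ppp5c, a phosphatase with a chaperone-binding domain, was lower in STR by -0.57, and Ppp6c was higher in PFC by 0.30.

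Of the 8 measured PP1 inhibitor genes, 2 were called in some tissue and 5 passed 0.5, beside 9.17% and 37.2% of all genes tested, and nothing particular to so short a list is read from these counts. Ppp1r14a encodes an inhibitor of myosin phosphatase best known from smooth muscle. In SN/VTA it ran from 8.55 over a median of 8.73 to 8.93, in HAB from 7.26 over 7.65 to 8.30, in STR from 6.97 over 7.22 to 7.60 and in PFC from 6.52 over 6.86 to 7.34. SN/VTA lay above every other array, and the neighbours below it overlapped. The difference was 1.47 ± 0.05 in SN/VTA (limma adjusted p = 2.2e-20) and -0.97 ± 0.05 in PFC, just short of the size required. Oligodendrocyte markers were also high in SN/VTA: 6 of 8 measured ones were higher by at least 1, and 4 were lower by at least 1 in PFC. Their summed level ran from 13.61 to 13.83 in SN/VTA, 12.65 to 13.46 in HAB, 12.58 to 12.76 in STR and 12.02 to 12.51 in PFC, the same order of tissues by median as Ppp1r14a. None of 6 mural cell markers passed 1 in SN/VTA, where their differences ran from -0.43 for Acta2 to 0.01 for Pdgfrb. Their summed level ran from 10.54 to 10.80 in SN/VTA, 10.64 to 11.03 in PFC, 10.72 to 11.00 in STR and 10.80 to 11.88 in HAB. The part of either cell type in the difference was not tested.

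Ppp1r1a, inhibitor 1, which blocks PP1 once protein kinase A has phosphorylated it, went the other way. It ran from 7.95 over 8.09 to 8.23 in SN/VTA, 8.89 over 8.96 to 9.14 in PFC, 8.97 over 9.08 to 9.24 in STR and 8.94 over 9.28 to 9.58 in HAB. The SN/VTA arrays were below all others and the other 3 tissues overlapped. The difference was -1.04 ± 0.04 (limma adjusted p = 7.2e-21), but -0.89 with medians centred, and without replicate 2 it also fell short of 1. Its close relative Ppp1r1b, the dopamine- and cAMP-regulated inhibitor of striatal neurons, stood only on a row with several symbols and was not analysed here.

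Ppp1r2, inhibitor 2, was the striatal gene of this group. It ran from 8.41 over 8.57 to 8.89 in STR, 7.54 to 7.76 in SN/VTA, 7.29 to 7.97 in PFC and 7.40 to 7.87 in HAB, so that STR stood alone and the other 3 overlapped. The difference of 0.95 ± 0.04 lay under the size required and passed it, at 1.03, after quantile normalization. Ppp1r14c was low in STR by -0.93 and high in PFC by 0.75, and passed 1 in STR under both other scalings, but its dimmer row, with a mean of 4.70 and so below the filter, gave 0.01 in STR and 0.07 in PFC, so the rows disagree. Ppp1r17, an inhibitor known from cerebellar Purkinje cells, was lower in PFC by -0.73. Ppp1r11, Ppp1r14b and Ppp1r14d stayed under 0.5 in every tissue.

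**Figure D2:**
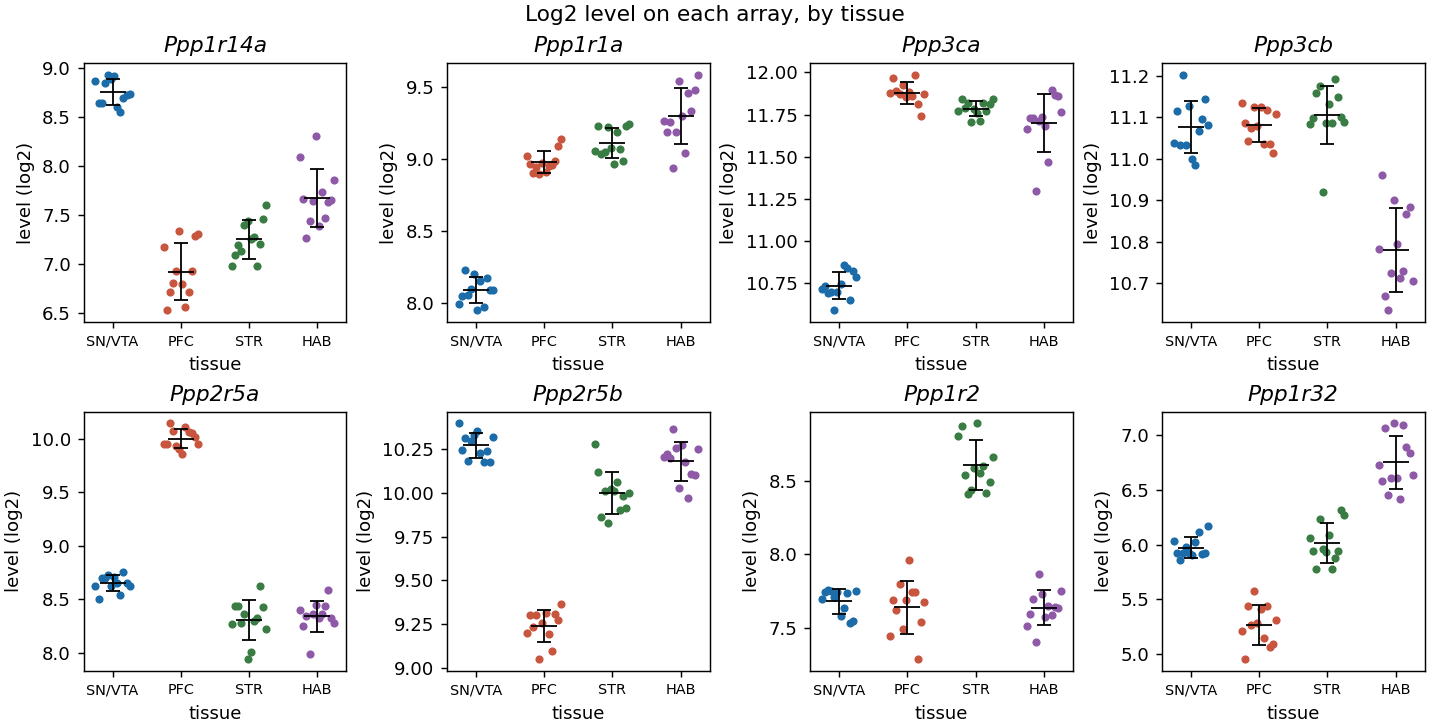
Log2 level of 8 members on each array by tissue (points in order of collection; horizontal mark and bars, mean ± SD of 12 arrays; axes do not start at 0). Ppp1r14a stands high in SN/VTA, at 8.55 to 8.93, Ppp1r1a and Ppp3ca low there, Ppp2r5a high and Ppp2r5b low in PFC, and Ppp1r2 high in STR.

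Among the genes that take PP1 to glycogen, 3 of the 6 measured passed 0.5 in some tissue, beside 37.2% of all genes tested, and no member of this group passed 1. SN/VTA stood at the top and PFC at the bottom for these 3. Ppp1r3c was 0.80 higher in SN/VTA and -0.95 in PFC, with levels of 9.12 to 9.38 in SN/VTA, 8.53 to 8.89 in STR, 8.49 to 8.88 in HAB and 7.78 to 8.24 in PFC. The ranges of STR and HAB overlap, and those of the other tissues stand clear of all others. Ppp1r3f was 0.73 higher in SN/VTA and -0.73 in PFC, and Ppp1r3e was -0.87 in PFC. Ppp1r3d and Ppp1r3g stayed under 0.5. For Ppp1r3b a second row of nearly the same mean gave 0.11 in PFC where the row used gave -0.21, so no direction is given. Astrocytes hold most of the glycogen of the brain, and 5 of 7 astrocyte markers were higher by at least 0.5 in SN/VTA and 4 lower in PFC. The other markers, Slc1a2 and Slc1a3, went the other way, by -0.23 and -0.34 in SN/VTA and by 0.38 and 0.24 in PFC. The summed level of the 7 ran from 13.37 to 13.48 in SN/VTA, 13.10 to 13.30 in HAB, 12.79 to 13.02 in STR and 12.81 to 12.99 in PFC. For this sum STR and PFC overlapped, whereas for Ppp1r3c STR stood clear above PFC. The part of astrocytes in these differences was not tested.

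The myosin targeting subunits Ppp1r12a and Ppp1r12b were both high in PFC, by 0.81 and 0.51, and low in SN/VTA, by -0.50 and -0.68. Ppp1r12c was instead higher in STR, by 0.60, and all of its 12 STR arrays lay above all others. The group's other genes were Ppp1r16a, lower in PFC by -0.51, and Ppp1r16b, which stayed under 0.5. The neurabins Ppp1r9a and Ppp1r9b bring PP1 to actin in dendritic spines. Ppp1r9a was high in STR, from 9.88 over 9.96 to 10.12, and PFC, with a lowest value of 9.77 and a median of 9.94, and low in HAB, from 8.90 over 9.09 to 9.22, and SN/VTA, from 8.75 over 8.86 to 8.96. STR and PFC did not overlap with HAB and SN/VTA, and the difference was -0.80 in SN/VTA and 0.70 in STR. Ppp1r9b, spinophilin, was lower in SN/VTA by -0.38, with its 12 arrays below all others, and Ppp1r18, the remaining gene of this role, stayed under 0.5.

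Of the subunits that bring PP1 to the initiation factor eIF2alpha and so end a translation arrest, Ppp1r15b was higher in SN/VTA by 0.55 and Ppp1r15a differed by at most 0.13 in size in any tissue. The nuclear subunit Ppp1r7 was higher in STR by 0.64, with all its STR arrays above all others, and lower in SN/VTA by -0.53, while Ppp1r10 and Ppp1r8 stayed under 0.5. Of the apoptosis-linked subunits, Ppp1r13b was lower in STR by -0.54 and its relative Ppp1r13l was not past 0.5.

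The remaining PP1 subunits included both members whose HAB arrays all lay above all others, Ppp1r32 and Ppp1r36, and Ppp1r21, Ppp1r26, Ppp1r35 and Ppp1r37, which stayed under 0.5. Ppp1r32 ran from 6.42 over 6.68 to 7.10 in HAB, 5.78 to 6.32 in STR, 5.86 to 6.17 in SN/VTA and 4.96 to 5.58 in PFC. HAB and PFC stood apart at the top and bottom, and STR and SN/VTA overlapped. The HAB difference of 0.997 fell just short of 1, and it passed in 17 of the alternatives, among them that without replicate 2, with values up to 1.04. Ppp1r36 was higher in HAB by 0.88 and lower in PFC by -0.76. Choroid plexus markers reached high levels on HAB arrays. Their summed level ran from 10.89 to 13.67 in HAB, 9.81 to 12.23 in SN/VTA, 9.30 to 12.03 in STR and 8.75 to 9.25 in PFC. In HAB it split by cycle. The arrays of replicate 1 ran from 13.46 to 13.67, and those of replicate 2 from 10.89 to 11.35 but for ZT15, at 13.64. On the HAB array with 10.89, at ZT11 of replicate 2, Ppp1r32 stood at 6.60, under its HAB median and above every array of the other tissues. Ppp1r36 had its lowest HAB value there, 6.33, where the highest array of another tissue had 6.28. The part of choroid plexus in both differences was not tested.

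PP2A consists of a catalytic subunit, a scaffold and 1 of several B subunits that choose its substrates. The scaffold genes Ppp2r1a and Ppp2r1b did not pass 0.5 in any tissue, although all 12 STR arrays of Ppp2r1a lay below all others at a difference of -0.21. The B56 subunits differed among themselves. Ppp2r5a ran from 9.86 over 9.99 to 10.14 in PFC, 8.50 over 8.65 to 8.75 in SN/VTA, 7.98 over 8.35 to 8.59 in HAB and 7.94 over 8.31 to 8.63 in STR. PFC lay far above all, and the other 3 tissues overlapped. The difference was 1.57 ± 0.04 (limma adjusted p = 1.4e-23), and under the 61 alternatives it stayed between 1.54 and 1.58. Ppp2r5b was instead lowest in PFC, from 9.05 over 9.26 to 9.36 in PFC against 9.83 to 10.40 over the other tissues, a difference of -0.91 with no overlap, and its dimmer row gave -0.45 in the same direction. Ppp2r5e was higher in PFC by 0.75. Ppp2r5d was lower there by -0.47, and Ppp2r5c differed by at most 0.14 in size in any tissue.

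Of the 4 B55 subunits, Ppp2r2b, a neuronal subunit, was 0.95 higher in PFC and -0.76 in HAB. It ran from 8.94 to 9.20 in PFC, 8.23 to 8.47 in STR, 8.17 to 8.39 in SN/VTA and 7.51 to 8.05 in HAB, so that PFC and HAB each stood clear and the middle pair overlapped. Ppp2r2a was lower in HAB by -0.53, and Ppp2r2c and Ppp2r2d stayed under 0.5. Both B-double-prime subunits were higher in SN/VTA. Ppp2r3c ran from 8.49 over 8.55 to 8.65 there and from 7.41 to 7.88 over the other tissues, a difference of 0.92 that became 1.07 with medians centred. Ppp2r3a differed by 0.51 in SN/VTA.

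The regulatory subunits of PP4 (Ppp4r1, Ppp4r2, Ppp4r3a, Ppp4r3b and Ppp4r4) and of PP6 (Ppp6r1, Ppp6r2 and Ppp6r3) did not pass 0.5 in any tissue, nor did the calcineurin B gene Ppp3r2. Ppp3r2 is known as the testis form, and at a mean of 5.52 it lay just inside the filter. The brain form Ppp3r1 stood only on a row with several symbols and was not analysed here. Just outside the filter was Ppp1r27 at 4.94, and the other genes below it were Ppp2r2cos, Ppp1r42, Ppp1r1c, Ppp1r2-ps9, Ppp1r3a, Ppp1r2-ps7 and Ppp4r3c-ps. By their names Ppp4r1l-ps and Ppp1r14bl, which were tested and stayed under 0.5, are a pseudogene and a copy of Ppp1r14b, whose probes may share signal with the parent gene.

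Partners of these phosphatases and phosphatases of other families were listed as neighbours of the pathway, and 40 of 42 were tested. Of them 5 passed 1 in some tissue and 23 passed 0.5, beside 9.17% and 37.2% of all genes tested. Akap5, the scaffold that anchors calcineurin and protein kinase A at synapses, was lower in SN/VTA by -1.63 and higher in STR by 1.21 and PFC by 1.16. The PP1 and actin regulator Phactr1 was higher in STR by 1.32 and lower in SN/VTA by -1.18. The phosphatase Ppm1e was lower in STR by -1.34, and Strn, the PP2A subunit striatin, was higher there by 1.12. Arpp19, an inhibitor of PP2A, was lower in HAB by -1.21. Akap5 and Phactr1 were thus low in SN/VTA, as Ppp3ca was, but they were also lower in HAB, by -0.73 and -1.10, where Ppp3ca differed by 0.23.

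The time of day was described by a cosine and a sine of 24 h over all 48 arrays, with tissue as a term. Amplitude is given from mean to peak on the log2 scale. A shared rhythm was called for 9 of 70 members (12.9%) at a limma adjusted p under 0.05, where 5.55% of all genes tested were called. At an unadjusted p under 0.05 there were 19 members (27.1%) against 19.1% of all genes. Of the 9 called members, 7 had a fitted peak in the dark (10% of members, 2.73% of all genes) and 2 in the light (2.86% of members, 2.81% of all genes). Some of these peaks lay near a change of light. Relative to the tissue mean, Ppp1r11 had mean deviations of 0.06 at both ZT3 and ZT23, and Ppp1r15b had 0.09 at ZT11 and 0.11 at ZT15. Amplitudes were small: the median over the members was 0.04, as over all genes tested, and 8 of the 9 called members lay between 0.06 and 0.11.

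**Figure D3:**
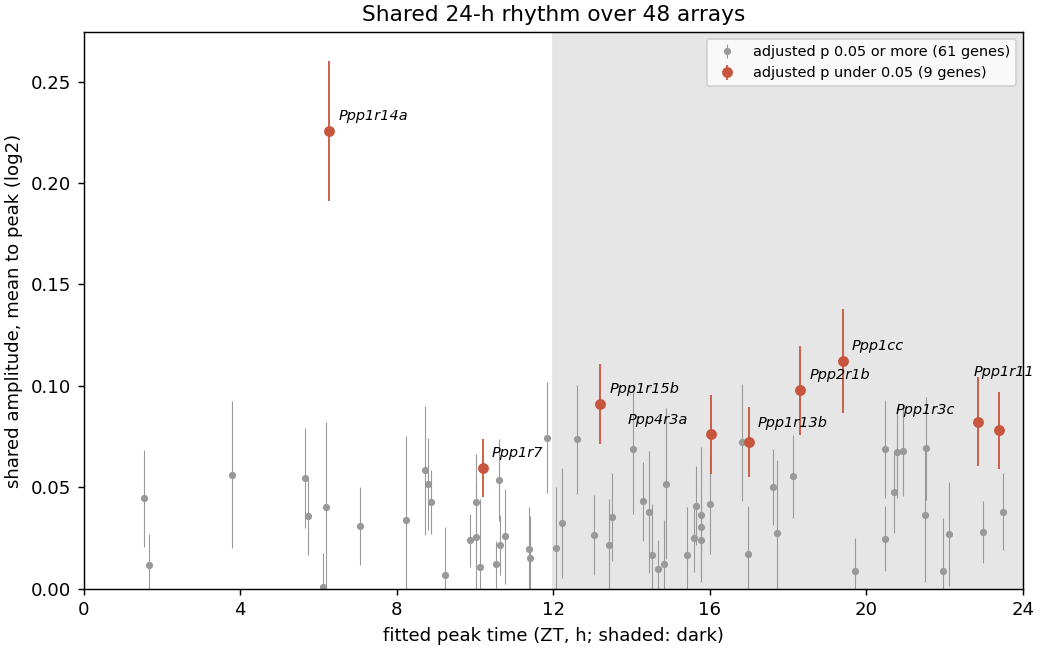
Shared amplitude of the 70 members (log2, mean to peak; bars, SE) against the fitted peak time (ZT in h; shading, dark), for the 9 called members and the 61 others. Ppp1r14a stands alone at 0.23 near ZT6, and 7 called members lie in the dark.

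Ppp1r14a had the largest amplitude and the smallest p of the members, at 0.23 ± 0.03 (SE, limma adjusted p = 7.4e-05) and a peak at ZT6.3. Relative to the mean of their tissue, the 8 arrays at ZT7 ran from -0.02 over a median of 0.27 to 0.63, and the 8 at ZT19 from -0.42 over -0.21 to -0.06. None of the ZT19 arrays was above its tissue mean and 7 of 8 at ZT7 were. On 37 of 48 arrays the deviation had the sign of the curve, which was fitted to these same arrays. In PFC Ppp1r14a stood at 7.34 and 7.30 on the ZT7 arrays of replicates 1 and 2, and at 6.71 and 6.71 on those of ZT19, with its lowest values, 6.52 and 6.56, at ZT15. In STR it stood at 7.44 and 7.60 at ZT7 and at 7.19 and 6.97 at ZT19. In HAB the ZT7 arrays gave 8.30 and 7.86 and the ZT19 arrays 7.26 and 7.46. In SN/VTA, where the gene was highest, the change was smaller, from 8.89 and 8.73 at ZT7 to 8.64 and 8.55 at ZT19.

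Fitted within a tissue, the amplitude of Ppp1r14a was 0.34 ± 0.06 in PFC (peak ZT5.5), 0.28 ± 0.09 in HAB (ZT8.0), 0.20 ± 0.06 in STR (ZT5.3) and 0.13 ± 0.04 in SN/VTA (ZT6.3). The unadjusted limma p was under 0.05 in every tissue (2.1e-04, 0.023, 0.012 and 0.025), and the adjusted p in none (0.074, 0.76, 0.46 and 0.41). The difference between the 4 rhythms had an unadjusted limma p of 0.14, so the smaller amplitude in SN/VTA is not shown to differ.

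Cell type markers also moved with time. Of 8 oligodendrocyte markers, Mag, Mog and Opalin had a shared rhythm, with peaks at ZT7.8, ZT8.8 and ZT5.5 and an amplitude of 0.32 for Opalin. The summed level of the 8, relative to the tissue mean, ran from -0.16 over 0.03 to 0.44 at ZT7 and from -0.24 over -0.03 to 0.08 at ZT19. Of 6 mural markers none was called, and their sum ran from -0.03 over 0.09 to 0.80 at ZT7. In HAB the ZT11 and ZT7 arrays of replicate 1 had the highest oligodendrocyte sums, 13.46 and 13.33, and the highest Ppp1r14a levels, 8.09 and 8.30. The HAB arrays of ZT7 had the highest mural sums, 11.69 and 11.88, against 10.80 to 11.17 on the other HAB arrays. Without the ZT11 and ZT7 arrays of replicate 1 the amplitude of Ppp1r14a was 0.20 (adjusted p = 1.2e-04), and 8 members were called. Without any HAB array its amplitude was 0.22 (adjusted p = 1.9e-04). Of 5 endothelial markers 3 had a shared rhythm with a peak in the dark, Cldn5 with an amplitude of 0.21 at ZT22.8, Flt1 with 0.10 at ZT21.1 and Slco1a4 with 0.14 at ZT12.5. The summed level of all 5 ran from -0.14 over 0.01 to 0.13 at ZT7 and from -0.10 over 0.05 to 0.19 at ZT19. At ZT3, in the light, it ran from -0.12 over 0.05 to 0.12. Its median was -0.11 at ZT11, 0.003 at ZT15 and 0.01 at ZT23, so the sum was not high throughout the dark. The part of these cell types in the rhythms of the members, 7 of which peaked in the dark, was not tested.

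The catalytic gene Ppp1cc followed, with an amplitude of 0.11 ± 0.03 (adjusted p = 0.012), a trough-to-peak fold of 1.17 and a peak at ZT19.4. Its arrays ran from -0.22 over -0.12 to -0.05 at ZT7, where none of 8 was above its tissue mean, and from -0.05 over 0.14 to 0.30 at ZT19, where 7 were. The PP2A scaffold gene Ppp2r1b had 0.10 ± 0.02 (adjusted p = 0.010) with a peak at ZT18.3, and ran from -0.32 over -0.08 to 0.08 at ZT7 and from -0.04 over 0.11 to 0.19 at ZT19. Both genes were thus low in the middle of the light and high in the dark, and Ppp1r14a was the reverse.

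Ppp1r15b, the constitutive eIF2alpha phosphatase subunit, had 0.09 ± 0.02 (adjusted p = 0.0066) with a peak at ZT13.2. All 8 of its arrays at ZT11 were above their tissue mean, from 0.03 to 0.23, and none at ZT3 was, from -0.18 to -0.03. Ppp1r13b (0.07 ± 0.02, ZT17.0, adjusted p = 0.017) and the PP4 subunit Ppp4r3a (0.08 ± 0.02, ZT16.0, adjusted p = 0.034) each had all 8 arrays at ZT15 above the tissue mean. The glycogen targeting gene Ppp1r3c (0.08 ± 0.02, ZT22.9, adjusted p = 0.043) and the inhibitor Ppp1r11 (0.08 ± 0.02, ZT23.4, adjusted p = 0.022) peaked late in the dark. The nuclear subunit Ppp1r7 (0.06 ± 0.01, ZT10.2, adjusted p = 0.021) was the other member with a peak in the light. For these 9 genes the deviation had the sign of the fitted curve on 33 to 38 of 48 arrays. The curve was fitted to these same arrays, so the count is no separate support for the calls. Ppp1r12a and Ppp2r5a, which were not called, had 36.

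**Figure D4:**
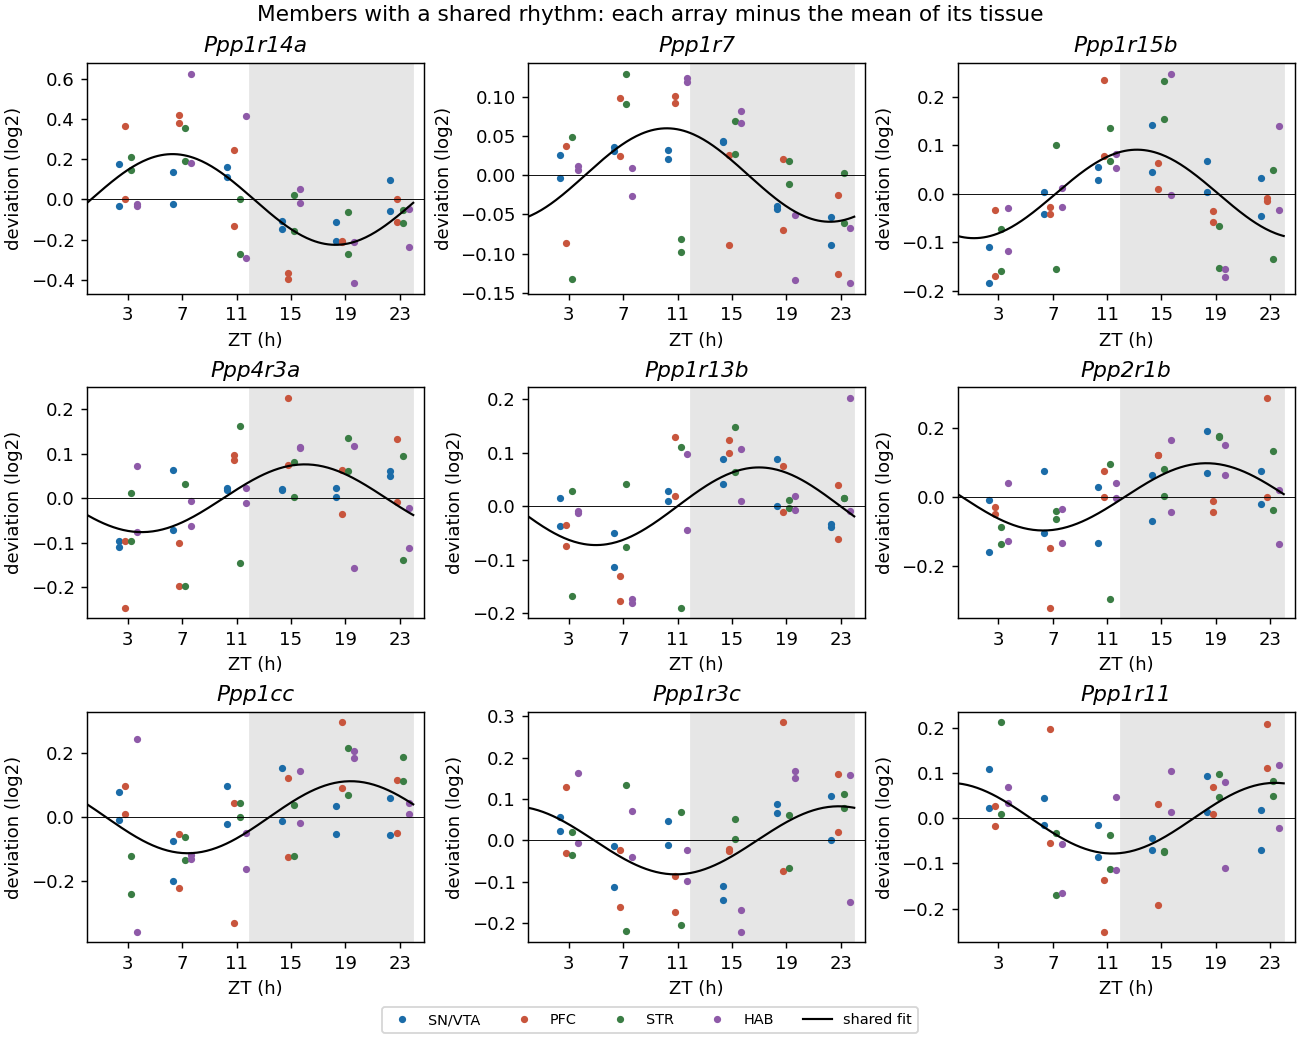
Level of the 9 called members on each array minus the mean of its tissue (log2) against ZT (h; shading, dark; points, 8 arrays per time, offset by tissue; line, shared curve). Panels are ordered by peak time from Ppp1r14a, and the 8 points of a time spread over much of the height of the curve in most of them.

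The calls changed most when a whole replicate or tissue was left out, and 7 to 10 members were called without single arrays. Without replicate 1 no member was called (70 genes in all), and Ppp1r14a had an adjusted p of 0.073, and without replicate 2 only Ppp1r14a was (199 genes). The labels do not say whether the tissues of 1 time came from the same mice. With the mean of the 4 tissues at each of the 12 collection times as 1 value, only Ppp1r14a was called (133 genes, 0.77%), and with the collection time as a random block 8 members were. Without SN/VTA 2 members were called, without PFC 1, without STR 3 and without HAB 5. With time as 6 classes in place of a curve, 4 were called, Ppp1r14a, Ppp1r15b, Ppp1r13b and Ppp1r10, a nuclear subunit whose 8 arrays at ZT15 all lay above and at ZT11 all below the tissue mean.

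Within a tissue no member had a limma adjusted p under 0.05, where 0.162% of all genes did in SN/VTA, 0.179% in PFC, 0.0174% in STR and 0.0174% in HAB. At an unadjusted p under 0.05 there were 6 members in SN/VTA (9.87% of all genes), 6 in PFC (11.6%), 5 in STR (8.49%) and 3 in HAB (6.3%), shares of the members of 8.57%, 8.57%, 7.14% and 4.29%. No member differed in rhythm between tissues (0.0289% of all genes), and at an unadjusted limma p under 0.05 there were 2, Ppp2r2d and Ppp2r3c (6.64% of all genes). One of the 40 partners had a shared rhythm, the phosphatase Pptc7, with an amplitude of 0.08 and a peak at ZT15.5.

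**Figure D5:**
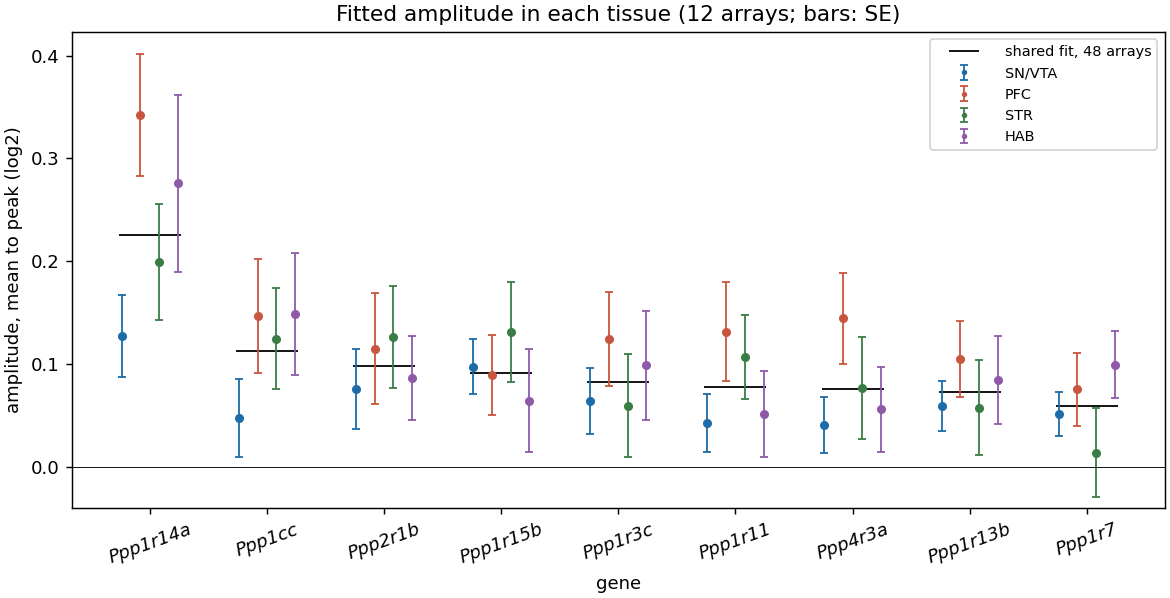
Amplitude fitted within each tissue for the 9 members with a shared rhythm (log2, mean to peak; points, 12 arrays each; bars, SE; black marks, shared fit over 48 arrays). Ppp1r14a is above the other genes in each tissue, from 0.13 in SN/VTA to 0.34 in PFC, and for most other genes the bars of the tissues overlap.

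To set promoter letters beside the shared rhythms, the stretch from 250 bases before to 50 after the start of the gene was searched on both strands for letters of factors known from daily and activity-dependent transcription. RefSeq promoters of build GRCm38.p6 matched 55 of the 70 members and 8 of the 9 with a shared rhythm. Where a gene had more than 1 start, as 11 members did, the start listed first was counted for members and for tested genes. The E-box of clock factors, CACGTG, stood in 3 of 55 member promoters, against 9.39% of tested genes with a promoter and 7.15% of all 32851 promoters of the table. Among the rhythmic members it stood in Ppp1r3c alone, and Ppp1r3d and Ppp1r9a were the others. The D-box TTANGTAA stood in 0 of 55 (1.52% of tested genes), and 1 member, Ppp2r5c, had it at its second start. The cAMP response element TGACGTNA stood in 5, against 4.37% of tested genes. The heat shock element GAANNTTC stood in 3, against 6.00% of tested genes. No rhythmic member with a promoter had either at the start counted. The shorter TGACG, which every full cAMP response element contains, stood in 25 of 55, against 28.0% of tested genes. With any start counted it stood in 26, against 30.8% of tested genes. Of the 8 rhythmic members with a promoter, 2 had it, Ppp1r14a and Ppp4r3a. A match is a description of letters in this window. The GC content of the member promoters had a median of 63.0%, against 59.3% for tested genes. Shown are the promoters of Ppp1r14a, Ppp1r3c and Ppp4r3a, the rhythmic members with a match at the start counted. Those of the rhythmic members Ppp1cc, Ppp1r11, Ppp1r13b, Ppp1r7 and Ppp2r1b held no match and are not shown. The promoters shown run 5′ to 3′ on the strand of the gene, with TGACG or CACGTG in capitals. They lie at chr7:29289070-29289369 (plus strand), chr19:36736555-36736854 (minus strand) and chr12:101083653-101083952 (minus strand).
Ppp1r14a: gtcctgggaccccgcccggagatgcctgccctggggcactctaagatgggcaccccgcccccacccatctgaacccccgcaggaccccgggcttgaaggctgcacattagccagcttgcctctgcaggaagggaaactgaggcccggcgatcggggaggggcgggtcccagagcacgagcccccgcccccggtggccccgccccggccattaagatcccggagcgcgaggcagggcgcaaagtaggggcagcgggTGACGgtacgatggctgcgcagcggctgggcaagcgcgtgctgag
Ppp1r3c: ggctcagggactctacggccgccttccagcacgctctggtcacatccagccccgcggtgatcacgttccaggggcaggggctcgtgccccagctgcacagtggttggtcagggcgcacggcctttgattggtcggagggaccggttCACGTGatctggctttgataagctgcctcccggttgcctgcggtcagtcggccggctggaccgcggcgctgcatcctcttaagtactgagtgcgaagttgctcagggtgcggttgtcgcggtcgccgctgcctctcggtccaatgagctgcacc
Ppp4r3a: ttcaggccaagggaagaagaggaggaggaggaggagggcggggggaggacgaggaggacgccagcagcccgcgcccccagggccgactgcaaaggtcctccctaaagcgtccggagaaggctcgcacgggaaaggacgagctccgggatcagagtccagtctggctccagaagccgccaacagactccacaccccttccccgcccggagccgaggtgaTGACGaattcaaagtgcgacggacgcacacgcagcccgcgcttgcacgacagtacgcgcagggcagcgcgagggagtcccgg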

How the data were processed

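RNA of 48 pools was hybridised to Affymetrix Mouse Gene 2.0 ST arrays, and the authors deposited 1 value per probe set and array. The deposited values, from 1.09 to 13.65, were taken as log2 levels made by the authors from the scanned signal, and the background correction, summarisation and scaling behind them were not found in the labels or headers. Of 41345 rows, 23521 carried 1 symbol and 1814 several, and the latter were left out. Where rows shared a symbol, the brightest by mean was used.

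The fits used limma 3.58.1 in R 4.3.3 (lmFit and eBayes, with the data.table package, 1.17.8) and were tested on simulated data. The simulated noise was independent between arrays, so that test cannot cover dependence between tissues of 1 collection time. Tissue contrasts used 24 groups of tissue and time, tissue rhythms 12 arrays with 9 residual degrees of freedom, and the difference of rhythms 6 terms of tissue by cosine and sine. P-values were adjusted over the 17274 genes. Promoters and figures used Python 3.11.15, pandas 2.3.3 and matplotlib 3.10.9. Precision is limited by how many arrays there are.

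The members and lists were chosen with earlier results of these data known. Named were all called members, all catalytic genes, up to 4 per role by mean level, called partners (up to 4 per test) and 3 clock genes; the other members and Arpp19 were named after their values were seen. Replicate numbers mark the 24-h cycle, per the hours in the titles. As a check of pairing, residuals of arrays sharing tissue and number gave an average correlation of 0.0357 (120 pairs, lowest -0.16), and those of different tissues at 1 collection time 0.0357 (72 pairs). Different tissues and times under 1 number gave 0.0054. The residuals of both arrays of a group mirror each other, so each value is counted in both cycles. The check does not settle whether the tissues of 1 time came from the same mice. Alternatives covered scaling, filter, row choice, replicate block, variance prior, size, shape of the rhythm and left-out arrays. The random block, tissue means, left-out tissues and both left-out HAB arrays were added after seeing the data.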

Additional observations from a re-analysis of the deposited data

How the results depend on the processing

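The 4 called differences between tissues kept their direction in all 61 alternatives, and calls over time were less stable. With medians centred, STR gained 1 member (Ppp1r14c), and SN/VTA lost Ppp1r1a and Ppp3ca and gained Ppp2r3c. With quantile normalization PFC had 2 and STR 2. At a size of 0.5 the counts were 12 in SN/VTA, 17 in PFC, 10 in STR and 7 in HAB. Leaving out arrays or a replicate gave 2 to 3 members in SN/VTA, 1 to 2 in PFC, 0 to 1 in STR, 0 to 1 in HAB, 0 to 10 for the shared rhythm (7 to 10 without single arrays), 0 to 1 rhythmic in PFC and 0 to 0 for the rhythms of SN/VTA, STR and HAB and the difference of rhythms. In PFC 1 rhythmic member (Ppp1r14a) was called with the filter at the median of all rows and 1 with an intensity trend in the variance prior. The shared rhythm gave 4 members with 6 time classes, 1 with the tissues averaged, 2 without SN/VTA, 1 without PFC, 3 without STR and 5 without HAB. Ppp1r3c lost its rhythm call in 36 of 64 alternatives and Ppp4r3a in 13, and Ppp1r14a in 1. Ppp1r13b lost it in 5, and Ppp1cc, Ppp1r11, Ppp1r15b, Ppp1r7 and Ppp2r1b in 6 each. For each of these the losses included the fits without either replicate and that with the tissues averaged. Most of the 64 left out a single array, and the fit with 6 time classes is not among them. The difference of Ppp2ca in STR turned from -0.30 to 0.31 when its rows were averaged, since the rows disagree. With the replicate block the counts were 3 in SN/VTA, 1 in PFC, 0 in STR, 0 in HAB and 9 for the shared rhythm, and the block changed no other call. Other causes were not tested. Without detection calls, the limit set by background is unknown.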
